A study of Mus musculus with 6 samples.

Results

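The miR-148 and miR-152 microRNAs (miRNAs) were followed in mouse heart muscle (myocardium), sampled 0 h or 6 d after death, a delay called the post-mortem interval. They were taken as every row whose name begins miR-148a, miR-148b or miR-152, which gave 6 of the 984 mature miRNAs in the files: the 3p and the 5p arm of each of 3 precursors. The 0 h group and the 6 d group each held 3 libraries of total RNA. Neither a treatment nor a mutation is named for either group, and the labels give no strain, age or sex. Whether the replicates are different mice is not labelled either. The p-values below therefore reflect the spread among these libraries alone, which may be technical.

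A miRNA gene is transcribed as a hairpin, and cutting the hairpin leaves a duplex of its 5p and 3p arms. One arm, the guide, is usually kept in the silencing complex, where its seed, bases 2 to 8, pairs with target mRNAs. The other arm, the passenger, is mostly degraded. In this family the 3p arms are the guides. They are known for repressing Dnmt1, the maintenance DNA methyltransferase. miR-148a-3p is abundant in liver, exocrine pancreas and many other tissues.

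The mature sequences are printed because the 3p arms form 1 seed family and the 5p arms do not. They are RefSeq's, on GRCm38.p6, written 5′ to 3′ with the seed in capitals.
miR-148a-3p: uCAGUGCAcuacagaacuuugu
miR-148b-3p: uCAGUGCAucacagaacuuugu
miR-152-3p: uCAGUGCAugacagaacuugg
miR-148a-5p: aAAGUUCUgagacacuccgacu
miR-148b-5p: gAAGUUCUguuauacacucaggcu
miR-152-5p: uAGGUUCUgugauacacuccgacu

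The 3p arms shared the seed CAGUGCA, and of the 851 miRNAs in the files that matched a RefSeq mature sequence, only these 3 carried it. Counted from the 5′ end, miR-148a-3p and miR-148b-3p differed at 2 of 22 positions, C9U and U10C. From miR-148a-3p to miR-152-3p, 3 of the 21 aligned positions differed (C9U, U10G and U20G), and from miR-148b-3p to miR-152-3p 2 did (C10G and U20G). The 5p arms of miR-148a and miR-148b shared a seed with each other, AAGUUCU, and with no other matched miRNA, while the seed of miR-152-5p, AGGUUCU, was its own. Outside the seed these 5p arms diverged: with the seed included, miR-148a-5p and miR-148b-5p were identical at 13 of 22 aligned positions.

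The hairpins, with both arms in capitals, are printed to place guide and passenger in the precursor, with 13 to 16 bases between the arms.
Mir148a: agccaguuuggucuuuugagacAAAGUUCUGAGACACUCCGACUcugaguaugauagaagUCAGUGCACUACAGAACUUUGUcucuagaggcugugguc
Mir148b: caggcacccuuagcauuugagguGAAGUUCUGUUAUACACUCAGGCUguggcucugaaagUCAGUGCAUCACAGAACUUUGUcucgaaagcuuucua
Mir152: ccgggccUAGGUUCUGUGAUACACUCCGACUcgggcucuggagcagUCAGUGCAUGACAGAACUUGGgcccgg

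On GRCm38.p6, RefSeq places Mir148a at chr6:51269812-51269910 on the minus strand, where GENCODE M21 has no other gene. Mir148b lies at chr15:103285125-103285221 on the plus strand, inside Copz1 and outside its exons. Mir152 lies at chr11:96850393-96850465 on the plus strand, inside Copz2, the paralogue of Copz1, and outside its exons. Both host genes encode zeta subunits of the coatomer that coats vesicles. The deposited tables carry no coordinates, so these positions belong to the annotation and not to the measurements.

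Depth differed between the groups, with 4468547 to 7906557 miRNA reads per library at 0 h and 617069 to 1889594 at 6 d. Levels are given as normalised CPM, that is reads scaled to 1000000 per library and by a further factor per library. They are relative to the other miRNAs of a library, and absolute amounts were not measured. In bulk tissue, fewer cells of a type and less RNA per cell cannot be told apart. Of the 5 heart muscle markers, miR-1a-3p was at 110064 normalised CPM or more in each of the 6 libraries (log2 fold change -0.33, limma adjusted p = 0.67). miR-133a-3p rose (1.43, limma adjusted p = 0.0069), miR-208a-3p (-1.49, limma adjusted p = 0.024) and miR-499-5p (-1.48, limma adjusted p = 0.013) fell, and miR-208b-3p did not pass (-0.85, limma adjusted p = 0.22). Markers of other cell types went both ways at 6 d, where limma called 16% of all 470 tested miRNAs higher and 21.9% lower. All 6 of 6 epithelial markers rose (limma adjusted p under 0.05), with a summed level of 61.3 to 119 normalised CPM at 0 h and 1315 to 2333 at 6 d. The skeletal muscle miR-206-3p rose from 8.34 to 15.3 up to 685 to 1440. The summed red blood cell markers were at 11656 to 15277 normalised CPM at 0 h and 45267 to 95633 at 6 d, where 1 of 3 rose, and the liver markers at 1459 to 2826 and 2902 to 24804, where 2 of 3 rose. Of the 2 endothelial markers 1 fell, with summed levels of 56921 to 88648 and 25279 to 35076. Of the 4 leukocyte markers 0 were called either way, with summed levels of 417 to 579 and 555 to 1026. Their part in the results below was not tested.

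mmu-miR-148a-3p was the second most abundant miRNA in each of the 6 libraries, behind miR-1a-3p. Its level was 154417, 115137 and 212042 normalised CPM in 0 h replicates 1 to 3 and 170805, 139895 and 85107 in 6 d replicates 1 to 3. The groups overlapped, and the lowest and the highest library, 6 d replicate 3 and 0 h replicate 3, lay on either side. It took 13.9% ± 5.04 of all miRNA reads at 0 h and 14.9% ± 0.58 of them at 6 d (SD, n = 3 per interval). As shares of reads, which need no further factor, the 0 h libraries held 14.2%, 8.75% and 18.8% and the 6 d libraries 14.2%, 15.1% and 15.3%, so that 0 h replicate 2 was then the lowest.

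mmu-miR-152-3p stood far lower, at 1782, 2248 and 1354 normalised CPM at 0 h and at 2960, 1155 and 909 at 6 d. These groups overlapped too, and 6 d replicate 1, the deepest 6 d library, held the highest level of all while the other 6 d libraries held the lowest pair. With library totals alone the lowest was instead 0 h replicate 3, at 1201 CPM, and the groups again overlapped. Its rank among miRNAs was 39 to 46 at 0 h and 27 to 43 at 6 d.

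mmu-miR-148b-3p was the least abundant guide, with 617, 572 and 666 normalised CPM at 0 h and 877, 854 and 846 at 6 d. Here the groups did not overlap, and all 3 libraries at 6 d lay above all 3 at 0 h. Its rank moved from 63 to 64 at 0 h to 46 to 56 at 6 d.

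**Figure D1:**
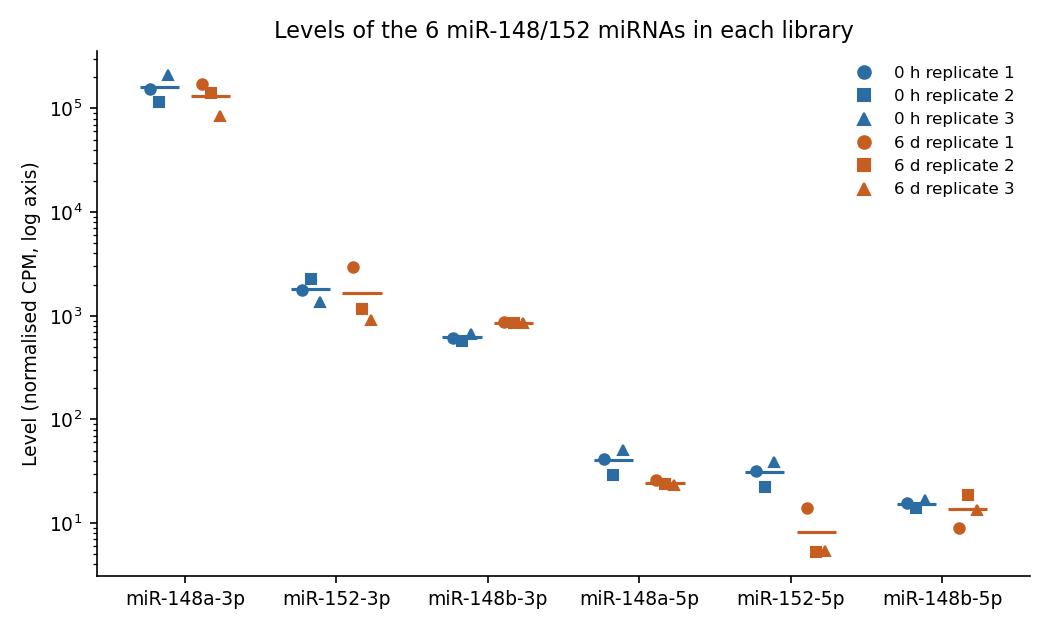
Level of each of the 6 miRNAs in each library, in normalised CPM on a log axis, with 1 symbol per replicate, 0 h in blue, 6 d in orange and a bar at each group's mean. miR-148a-3p sits between 85107 and 212042, the other 3p arms between 572 and 2960, and the 5p arms between 5.29 and 50.8.

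Within each library the order of the guides was the same, miR-148a-3p above miR-152-3p above miR-148b-3p, in 6 of 6 libraries. The lower neighbours were close in 6 d replicate 3, with 1007 reads of miR-152-3p (95% exact interval 946 to 1071) and 938 of miR-148b-3p (879 to 1000), which overlap in counting error alone. Their means were 1795 ± 447 and 618 ± 46.8 normalised CPM at 0 h and 1675 ± 1120 and 859 ± 16.0 at 6 d (SD, n = 3 each). The difference of the 6 d means was smaller than the SD of miR-152-3p. In both groups every miR-152-3p value lay above every miR-148b-3p value on this scale. With library totals alone that did not hold at 6 d, where miR-152-3p was at 1248 CPM in replicate 2 and miR-148b-3p at 1520 in replicate 3.

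None of the 3 guides was called changed at 6 d. In the limma test over all 470 tested miRNAs, 178 were called (37.9%), 75 higher and 103 lower, and 0 of the 3 guides, with 0 at an unadjusted p under 0.05. That split was 83 higher and 40 lower with library totals alone, 90 and 84 with RLE size factors (as DESeq2 computes them), 80 and 71 with edgeR, 97 and 74 with DESeq2, and 80 and 49 after thinning each library to the smallest. The log2 fold change of miR-148a-3p was -0.30 (95% interval -1.14 to 0.55, limma adjusted p = 0.56), and -0.51 to -0.0098 with 1 library left out, nearest to 0 without 6 d replicate 3. That of miR-152-3p was -0.27 (-1.28 to 0.75, limma adjusted p = 0.68), and that of miR-148b-3p 0.48 (-0.16 to 1.11, limma adjusted p = 0.21). These intervals leave room for falls of more than 1 log2 unit in miR-148a-3p and miR-152-3p and for a rise of that size in miR-148b-3p. The quasi-likelihood test of edgeR, which called 41.6% of 363 miRNAs, also called 0 of the 3, while DESeq2 called miR-148b-3p higher (log2 fold change 0.70, DESeq2 adjusted p = 0.027), where it called 33.7% of 507 miRNAs. The limma interval of miR-148b-3p left out 0 with RLE size factors (0.70, 95% interval 0.07 to 1.33, limma adjusted p = 0.079). It also did after thinning (0.83, 0.13 to 1.52, limma adjusted p = 0.076), and neither was a call.

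These folds are best read against the rest of the library. On the deposited scale the typical tested miRNA lay at -0.33 (median log2 fold change), and with library totals alone at 0.02. miR-148a-3p stood 0.03 above this median on the deposited scale and 0.14 above it with library totals alone. For miR-152-3p the distances were 0.06 and 0.17, and for miR-148b-3p 0.81 and 0.91. With library totals alone miR-148a-3p (log2 fold change 0.16) and miR-152-3p (0.19) turned positive, and neither was called.

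How far the replicates of a guide lay apart depended on the scaling. On the deposited scale at 6 d the 3 values of miR-148b-3p had a log2 SD of 0.027, and of the 132 tested miRNAs with a 6 d mean of at least 100 normalised CPM, 1 had a smaller one. The median over those 132 was 0.52. Its coefficient of variation was 1.86%, below the 3.34% that counting error alone gives at its 645 to 1378 reads. miR-148a-3p had a log2 SD of 0.52 at 6 d and miR-152-3p one of 0.90, with 113 of the 132 smaller than that of miR-152-3p. At 0 h the log2 SDs were 0.44 for miR-148a-3p, 0.37 for miR-152-3p and 0.11 for miR-148b-3p, against a median of 0.33 over 133 miRNAs. With library totals alone, an alternative chosen after seeing the data, the order at 6 d turned round. miR-148a-3p then had the smallest log2 SD of the guides, 0.057, with 1 of the 132 smaller, while miR-148b-3p had 0.54 and miR-152-3p 0.49, against a median of 0.60. At 0 h the values were then 0.56, 0.24 and 0.28 in that order, against a median of 0.37.

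Of all reads of the shared 3p seed, miR-148a-3p held nearly everything. Its share of the 3 guides was 98.4% ± 0.73 at 0 h and 98.1% ± 0.41 of them at 6 d (SD, n = 3 per interval), a difference within the spread (exact two-sided permutation p = 0.7, Benjamini-Hochberg adjusted p = 0.9 over 4 values). Among the 46 seeds carried by at least 2 tested miRNAs, this dominance by 1 member ranked second on the reads of the 0 h libraries, at 98.5%, after miR-140-3p with 98.8%. On the reads of the 6 d libraries it was at place 4, with 98.0%, after miR-140-3p (99.9%), miR-455-5p (99.0%) and miR-29a-3p (98.1%). The share of miR-152-3p was 1.22% ± 0.64 at 0 h and 1.19% ± 0.46 at 6 d (exact permutation p = 0.9, adjusted p = 0.9).

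The share of miR-148b-3p was 0.394%, 0.485% and 0.311% in the 0 h libraries and 0.502%, 0.602% and 0.974% in the 6 d libraries. Each 6 d library lay above each 0 h library, and the exact two-sided permutation p of 0.1 (adjusted p = 0.4) is the smallest that 3 against 3 libraries can give. The log2 of the summed level of the guides was 17.27 ± 0.43 at 0 h against 16.98 ± 0.52 at 6 d (SD, n = 3, exact permutation p = 0.5, adjusted p = 0.9). With 1 library left out that difference of -0.29 ran from -0.51 to -0.0071, nearest to 0 without 6 d replicate 3, and the share difference of miR-148b-3p, 0.296 percentage points, fell to 0.155 without the same library.

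Ratios between members of 1 library do not depend on how libraries are scaled. miR-148a-3p had 250, 201 and 318 reads per read of miR-148b-3p at 0 h and 195, 164 and 101 at 6 d. All 3 ratios at 6 d lay below all 3 at 0 h. The log2 ratio differed by -0.77 between the intervals (SE 0.35, 95% interval -1.62 to 0.07), which did not pass the test over all 146 pairs of tested miRNAs that share a seed (limma adjusted p = 0.11). In that test 72 pairs were called (49.3%), and 0 of the 3 pairs of guides, with 0 at an unadjusted p under 0.05. How many of the 146 pairs had groups that did not overlap was not counted. Among single tested miRNAs 50.6% had such groups on the deposited scale.

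miR-148a-3p had 86.6, 51.2 and 157 reads per read of miR-152-3p at 0 h and 57.7, 121 and 93.7 at 6 d. The groups overlapped widely, with a log2 difference of -0.03 (95% interval -1.25 to 1.19, limma adjusted p = 0.97). miR-152-3p had 2.89, 3.93 and 2.03 reads per read of miR-148b-3p at 0 h and 3.38, 1.35 and 1.07 at 6 d, where replicate 1 lay among the 0 h values. Written as miR-148b-3p to miR-152-3p, the log2 ratio differed by 0.74 (95% interval -0.47 to 1.96, limma adjusted p = 0.26), and without 6 d replicate 1 by 1.24 (limma adjusted p = 0.044).

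**Figure D2:**
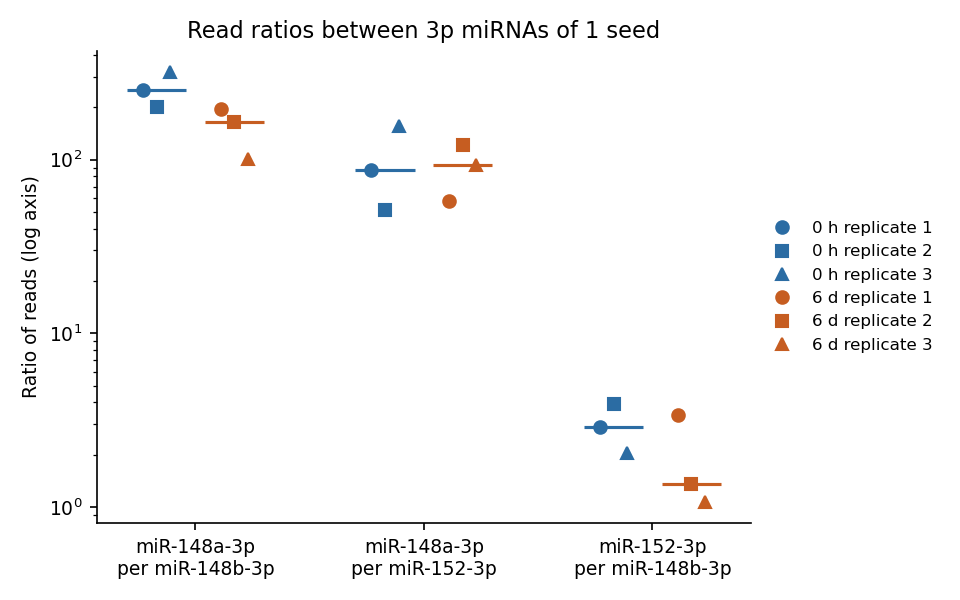
Reads of one 3p miRNA per read of another of the same seed in each library, on a log axis, with 1 symbol per replicate, 0 h in blue, 6 d in orange and a bar at each group's median. The ratio of miR-148a-3p to miR-148b-3p lies between 201 and 318 at 0 h and between 101 and 195 at 6 d, while the other ratios overlap between the intervals.

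Reads of miR-148b-3p and miR-152-3p are uncertain in one respect. They differ from miR-148a-3p at only 2 and 3 bases, and no source used here names the counting tool or the mismatches it allowed. Misassigned reads were not tested. The counts stood 318 to 1 at most and 101 to 1 at least between miR-148a-3p and miR-148b-3p. Centred on their own means, these log2 profiles had a root mean square difference of 0.52, and miR-148a-3p came at place 56 of 274 among the profiles nearest to miR-148b-3p.

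The passenger arms were rare. miR-148a-5p was read 169, 175 and 329 times at 0 h and 41, 18 and 26 times at 6 d, or at 41.1, 29.1 and 50.8 against 26.1, 23.8 and 23.5 normalised CPM. Every 6 d library lay below every 0 h library on this scale, though not with library totals alone, and with a log2 fold change of -0.67 it did not pass (95% interval -1.46 to 0.13, limma adjusted p = 0.17). miR-148b-5p was read 64, 84 and 108 times at 0 h and 14, 14 and 15 times at 6 d, or at 15.6, 14.0 and 16.7 against 8.91, 18.5 and 13.5 normalised CPM. Its groups overlapped (log2 fold change -0.21, 95% interval -1.11 to 0.68, limma adjusted p = 0.69).

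miR-152-5p was the only row of the 6 to be called, and it fell. It was read 130, 133 and 251 times at 0 h and 22, 4 and 6 times at 6 d. Its level was 31.6, 22.1 and 38.8 normalised CPM at 0 h and 14.0, 5.29 and 5.41 at 6 d, so that each 6 d library lay below each 0 h library. The groups also did not overlap for miR-148a-5p and miR-148b-3p, making 3 of 6, against 50.6% of all tested miRNAs. With library totals alone miR-152-5p and miR-148b-3p still did not overlap, making 2 of 6 against 39.8%, while miR-148a-5p did.

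On the log2 scale miR-152-5p fell by 1.88 (SE 0.46, 95% interval -2.91 to -0.84, limma adjusted p = 0.011), and stood 1.55 below the median of all tested miRNAs (log2 difference -1.55). Lower calls made up 21.9% of all tested miRNAs. The call was lost with library totals alone (log2 fold change -1.46, limma adjusted p = 0.051), though the distance to the median was then -1.48. With as few as 4 reads in a library, whose exact 95% interval is 1.09 to 10.2 reads, the size of the fall is uncertain at 6 d.

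**Figure D3:**
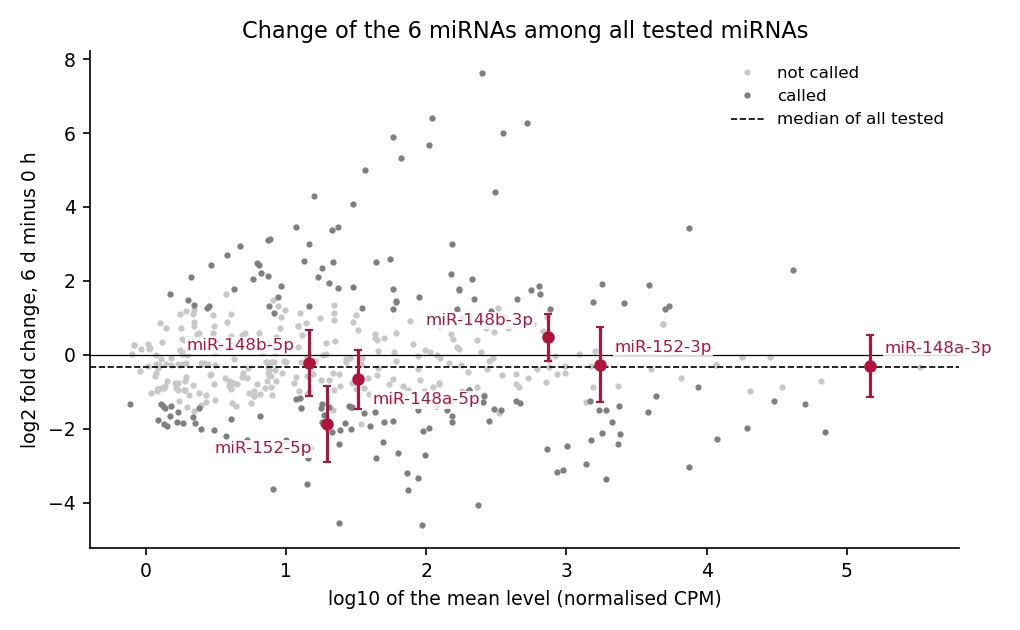
The log2 fold change of 6 d minus 0 h against the log10 of the mean level in normalised CPM, for all 470 tested miRNAs in grey (darker where called) and for the 6 miRNAs of the family in red with 95% intervals from limma. Only the interval of miR-152-5p, from -2.91 to -0.84, leaves out 0, and the dashed line is the median of all tested miRNAs at -0.33.

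The balance of the arms was read within each library, where scaling cancels. miR-148a had 3754, 3955 and 4174 reads of its 3p arm per 5p read at 0 h and 6545, 5872 and 3628 at 6 d, with 6 d replicate 3 below all 0 h libraries. Among 116 precursors with both arms tested, its arms were at place 3 from the most unequal on the reads of the 0 h libraries, with a log2 ratio of 12.0 against a median of 3.17. miR-148b had 39.6, 41.0 and 39.9 reads of its 3p arm per 5p read at 0 h and 98.4, 46.1 and 62.5 at 6 d. The 0 h values were nearly equal, and the 6 d values all lay above them.

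miR-152 had 56.3, 102 and 34.9 reads of its 3p arm per 5p read at 0 h and 211, 218 and 168 at 6 d. The lowest value at 6 d lay above the highest at 0 h. Its log2 ratio of 5p to 3p, with 1 read added to each arm, fell by 1.57 (SE 0.47, 95% interval -2.66 to -0.48, limma adjusted p = 0.034), from -5.86 ± 0.77 to -7.43 ± 0.25 (SD, n = 3 each). Of the 116 precursors 44 were called (37.9%), 22 of them toward the 3p arm (19%), and miR-152 was at place 25 of 116 in the order from the largest shift toward 3p.

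The same ratio differed by -0.63 for miR-148b (95% interval -1.61 to 0.35, limma adjusted p = 0.28) and by -0.34 for miR-148a (95% interval -0.997 to 0.31, limma adjusted p = 0.38). Neither passed the threshold, although all 3 precursors had the same sign. Leaving out 1 library ended the call for miR-152 in 4 of 6 cases, with a limma adjusted p of 0.11 when 0 h replicate 1 was absent, 0.070 for 0 h replicate 3, 0.057 for 6 d replicate 1 and 0.074 for 6 d replicate 2. Adding 5 reads in place of 1 ended it too (limma adjusted p = 0.099). Without 6 d replicate 3, that of miR-148a was called (log2 difference -0.60, limma adjusted p = 0.037).

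**Figure D4:**
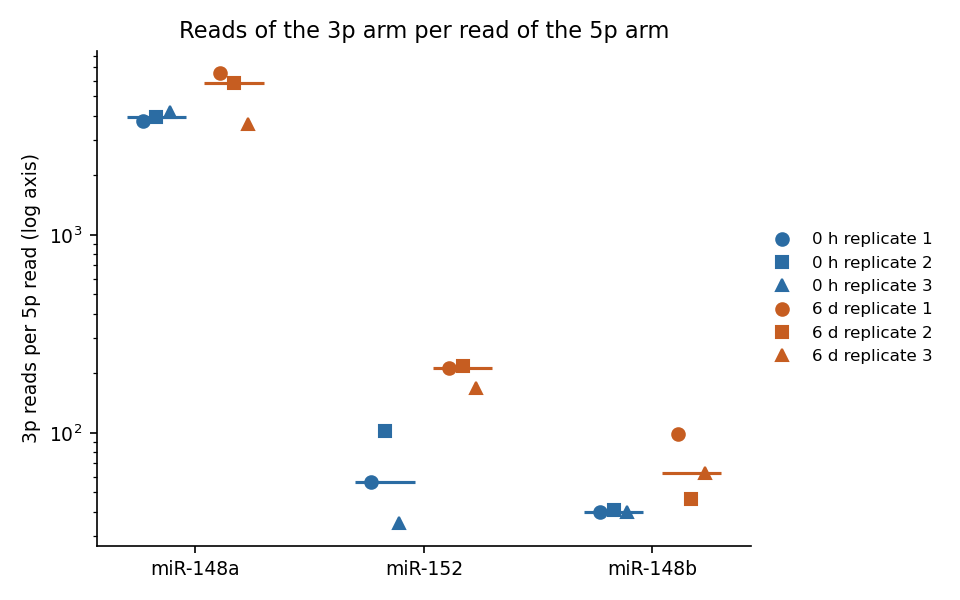
Reads of the 3p arm per read of the 5p arm of each precursor in each library, on a log axis, with 1 symbol per replicate, 0 h in blue, 6 d in orange and a bar at each group's median. For miR-152 the 0 h libraries lie between 34.9 and 102 and the 6 d libraries between 168 and 218, without overlap.

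The order of the passengers by read count differed between libraries. miR-148a-5p and miR-148b-5p, which share a seed, stood at 2.64, 2.08 and 3.05 reads to 1 at 0 h and 2.93, 1.29 and 1.73 at 6 d, and their log2 ratio did not pass the test (difference -0.48, limma adjusted p = 0.30). miR-148a-5p had 1.30, 1.32 and 1.31 reads per read of miR-152-5p in the 0 h libraries and 1.86, 4.50 and 4.33 in the 6 d libraries. miR-152-5p had 2.03, 1.58 and 2.32 reads per read of miR-148b-5p at 0 h, and 1.57, 0.286 and 0.400 at 6 d. So miR-152-5p was the middle one of the passengers in all 3 libraries at 0 h and the least abundant in 2 of 3 at 6 d, replicates 2 and 3. The ratios to miR-152-5p were chosen after their values were seen and were not tested.

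The guides did not share 1 profile over the 6 libraries. By the root mean square difference of centred log2 levels over 6 libraries, the miRNAs most like miR-148a-3p among 274 were miR-29c-5p (0.19), miR-1843b-5p (0.27) and miR-1981-5p (0.30), and its own passenger miR-148a-5p came at place 12 (0.32). Nearest to miR-148b-3p were miR-23a-3p (0.15), miR-29c-3p (0.17) and miR-1947-5p (0.18), and its passenger miR-148b-5p came at place 46 (0.45). Nearest to miR-152-3p were miR-143-5p (0.26), an arm of a smooth muscle miRNA, miR-103-3p (0.27) and miR-19a-3p (0.31). The passenger miR-152-5p came only at place 142 (0.93) from miR-152-3p. The median difference over all miRNAs compared was 0.82 for miR-148a-3p, 0.84 for miR-148b-3p and 0.90 for miR-152-3p.

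miR-103-3p shows what this likeness looks like in single libraries. It was at 1151, 1641 and 832 normalised CPM at 0 h and at 1872, 903 and 966 at 6 d. As for miR-152-3p, 0 h replicate 3 was the lowest of the 0 h libraries and 6 d replicate 1 the highest of all. The guides lay further from each other, with 0.56 between miR-148a-3p and miR-152-3p and 0.68 between miR-148b-3p and miR-152-3p.

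Other miRNAs known to act on DNA methyltransferases were compared as a list of 9, of which 8 were tested. In the limma test 3 fell and 0 rose, with 0 higher at an unadjusted p under 0.05, by edgeR 2 fell and 0 rose, and by DESeq2 2 fell and 0 rose. Over all tested miRNAs limma called 21.9% lower and 16% higher. edgeR called 71 lower and 80 higher of all 363 it tested, and DESeq2 74 lower and 97 higher of all 507. The median log2 fold change was -0.99, against -0.33 over all tested miRNAs. miR-126a-3p, the endothelial miRNA, went from 71694 ± 15633 to 28363 ± 5031 normalised CPM (log2 fold change -1.33, limma adjusted p = 0.0095), miR-29b-3p of the Dnmt3a and Dnmt3b regulators from 39.5 ± 8.21 to 13.2 ± 12.0 (-1.84, limma adjusted p = 0.031), and miR-185-5p, whose groups overlapped, from 4055 ± 3096 to 725 ± 352 (-2.13, limma adjusted p = 0.037, SD, n = 3 each). The other tested members were not called. Positive were miR-29a-3p (0.12, limma adjusted p = 0.75) and miR-29c-3p (0.53, 0.28), which share the seed of miR-29b-3p, and miR-342-3p (0.55, 0.25). Negative were miR-101a-3p (-1.27, 0.12) and miR-143-3p (-0.71, 0.21). miR-29a-3p was far more abundant than miR-29b-3p, at 1540 and 1667 normalised CPM. With library totals alone 0 of the 8 were called by limma, with 3 lower at an unadjusted p under 0.05. Of all 472 miRNAs tested on that scale 40 were called lower. The call of miR-29b-3p was lost when any library but 6 d replicate 1 was left out (limma adjusted p = 0.058 to 0.088), and that of miR-185-5p without 0 h replicate 1 or 2 or 6 d replicate 1 or 3 (0.098 to 0.13). miR-29b-3p was called neither by edgeR (edgeR adjusted p = 0.063) nor by DESeq2 (DESeq2 adjusted p = 0.078). The 2 that fell by each of these were miR-126a-3p and miR-185-5p.

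Of 8 miRNAs known from cholesterol and lipoprotein control, 7 were tested, and 4 fell and 1 rose in the limma test, where 21.9% and 16% of all tested miRNAs did. edgeR called 1 lower and 2 higher, against 71 and 80 of all 363 miRNAs it tested. DESeq2 called 3 lower and 2 higher, against 74 and 97 of all 507. The median log2 fold change was -0.86, against -0.33 over all tested miRNAs. miR-30c-5p (log2 fold change -3.03) and the liver miRNA miR-122-5p (3.42) kept their calls in each of the 16 other settings run. miR-27a-3p (-1.11), miR-27b-3p (-0.86) and miR-128-3p (-1.50) lost theirs in 9, 13 and 6 of the 16. With library totals alone 1 of the 7 was called lower and 1 higher, against 40 and 83 of all 472 tested miRNAs. Among settings that leave out 1 library, the losses were without any 0 h replicate or 6 d replicate 2 for miR-27a-3p (limma adjusted p = 0.055 to 0.096), without those or 6 d replicate 3 for miR-27b-3p (0.090 to 0.15), and without 0 h replicate 2 or 3 or 6 d replicate 2 for miR-128-3p (0.064 to 0.083).

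Because miR-148a-3p is abundant in liver and exocrine pancreas, the markers of these tissues are given beside it. The liver miRNA miR-122-5p was at 702, 668 and 1406 normalised CPM at 0 h and at 2086, 23460 and 16716 at 6 d. Among the 6 d libraries miR-148a-3p was highest on this scale, at 170805, in replicate 1, where miR-122-5p was lowest. With library totals alone that replicate was instead the lowest 6 d library for miR-148a-3p, at 142015 CPM against 151067 and 152848. The order at 6 d thus depended on the scaling. Among the 0 h libraries miR-122-5p and miR-148a-3p were each lowest in replicate 2 and highest in replicate 3. There miR-148a-3p was at 115137 and 212042 normalised CPM, and it kept this 0 h order with library totals alone. The pancreatic acinar miR-216a-5p and miR-216b-5p stayed at 0 to 0.903 normalised CPM in all 6 libraries, and miR-217-5p at 1.23 to 3.61. miR-375-3p, an islet miRNA on the same list of 4, rose from 2.19, 1.66 and 3.40 to 22.9, 19.9 and 37.9 (log2 fold change 3.01, limma adjusted p = 0.00072). The part of liver or pancreas RNA in the level of miR-148a-3p was not tested.

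**Figure D5:**
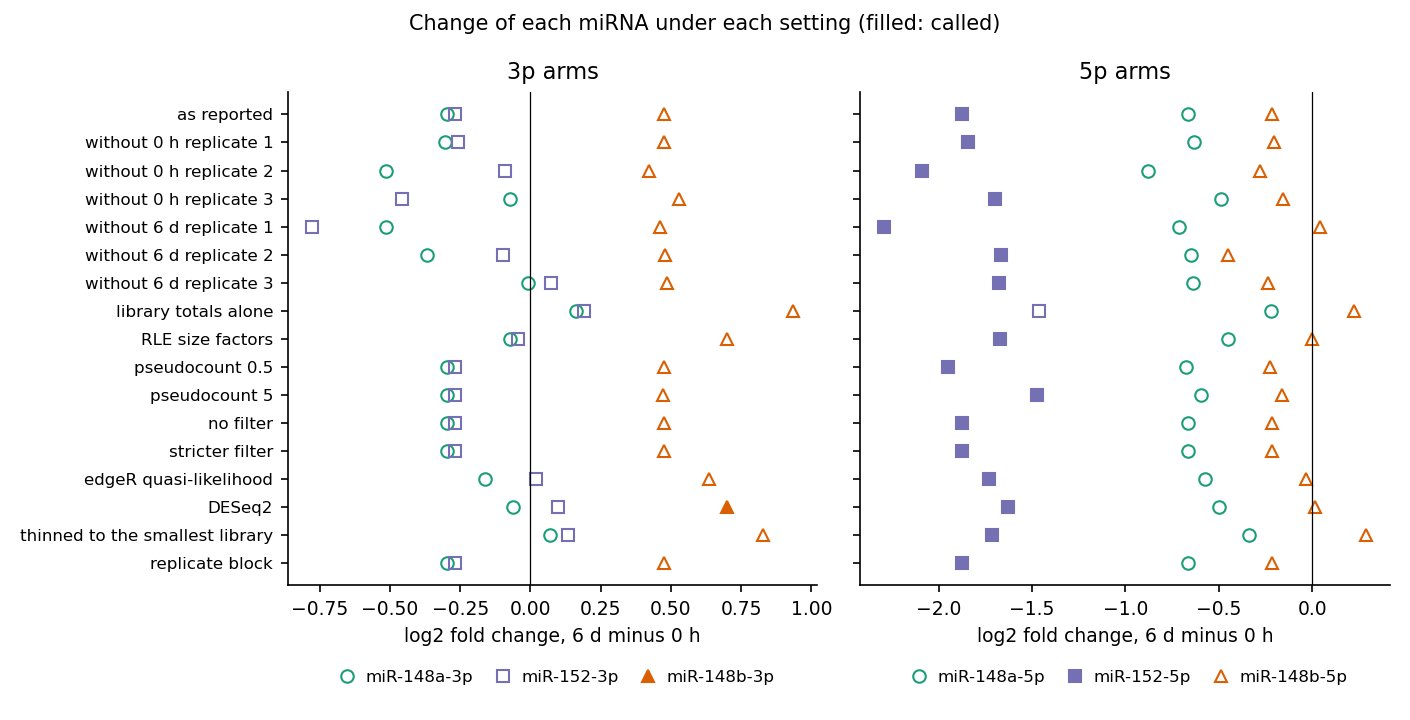
The log2 fold change of 6 d minus 0 h of each miRNA, 3p arms at left and 5p arms at right, as reported and under 16 other settings named on the vertical axis. Filled symbols mark a call (adjusted p under 0.05). miR-152-5p stays between -2.29 and -1.46 and is open only with library totals alone, while miR-148a-3p and miR-152-3p lie on both sides of 0 with the setting.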

How the data were processed

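Total RNA of mouse myocardium was, per the labels' protocols, isolated with Trizol and sequenced from NEBNext small RNA libraries. The submitters' processing notes name STAR 2.5.3a, cutadapt 2.8, Trimmomatic 0.39 and FastQC, without roles. No source used here names a counting tool, annotation or build. For 0 h replicate 1 the authors deposited raw counts, and the other 5 deposited files hold log2(x + 1) values, where x is reads scaled per library.

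The x were whole multiples of 1 step per library in 2692 of 2692 testable values (within the rounding of 0.0005), so reads were recovered. Another 418 values were too large to test. 0 h replicate 1 was put on the common scale with a factor of 0.919, derived so that the 6 factors multiply to 1. limma 3.58.1 (trended, robust) was run on log2(value + 1) for the 470 miRNAs that reached 1 in 3 or more libraries, on 5p to 3p log2 ratios and on same-seed pair ratios. Calls use 0.05 on p-values adjusted by Benjamini-Hochberg over all tested. edgeR 4.0.16 and DESeq2 1.42.0 were alternatives on recovered reads. Other alternatives were the scaling, pseudocount, filter, thinning to the smallest library, a replicate block and leaving out each library.

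Named miRNAs were all rows of the rule, the 3 most similar profiles per guide among tested miRNAs with a mean of at least 10 normalised CPM, and 2 lists. The members and lists were chosen with earlier results of these data known. No replicate pair agreed within sampling noise (smallest chi-square per df 262). A floor of 3 reads is 0.463 to 0.730 normalised CPM at 0 h and 1.91 to 3.97 at 6 d. Floors and intervals of reads cover counting error only, and log2(value + 1) understates the change of low miRNAs. The steps were run on simulated counts with 1 setting of noise for all miRNAs and groups. In the data the median log2 SD, at a group mean of at least 100 normalised CPM, was 0.33 at 0 h and 0.52 at 6 d. That run therefore does not measure error rates here.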

Additional observations from a re-analysis of the deposited data

How the results depend on the processing

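Thinning before arm and pair ratios, and library totals for the replicate spread and the overlap of groups, were added after seeing the data. The number of called miRNAs was 178 (114 to 179 with 1 library left out, lowest without 0 h replicate 1), of arm ratios 44 (20 to 32, lowest without 0 h replicate 1) and of same-seed pair ratios 72 (46 to 60). miR-152-5p kept its call in 15 of 16 settings (log2 fold change -2.29 to -1.66 with 1 library left out, and -1.46 uncalled with library totals alone). The arm ratio of miR-152 was -1.96 to -1.20 with 1 library left out and -1.03, uncalled, with 5 reads added, which shrinks low counts. It was -1.78 (limma adjusted p = 0.048) after thinning. The arm ratio of miR-148a was -0.60 to -0.16 with 1 library left out. miR-148b-3p had a log2 fold change of 0.42 to 0.53 with 1 library left out and 0.70, called, with DESeq2.

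Sign changes were of uncalled values. With library totals alone the log2 fold change was 0.16 for miR-148a-3p, 0.22 for miR-148b-5p and 0.19 for miR-152-3p, and the summed level differed by 0.17. After thinning these were 0.070, 0.29, 0.14 and 0.075, and the share of miR-152-3p differed by 0.0026 percentage points. With DESeq2 they were 0.014 for miR-148b-5p and 0.097 for miR-152-3p, with edgeR 0.020 for miR-152-3p. With 1 library left out the log2 fold change was -0.51 to -0.0098 for miR-148a-3p, -0.45 to 0.041 for miR-148b-5p and -0.78 to 0.074 for miR-152-3p, the log2 ratio of miR-148a-3p to miR-152-3p -0.43 to 0.38 and of miR-148b-3p to miR-152-3p 0.41 to 1.24, and the share difference -0.64 to 0.083 percentage points for miR-148a-3p and -0.34 to 0.30 for miR-152-3p. The cause was not tested.

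With the replicate block 195 miRNAs, 41 arm ratios and 59 pair ratios were called, and no member's call changed. Whether replicate numbers mark pairs was not settled. Between same-numbered libraries the deviations from group means had correlations of 0.07, 0.06 and 0.27. The closest partner of 0 h replicate 1 was 6 d replicate 2 (0.16), while 0 h replicates 2 and 3 were closest to the 6 d library of their own number. Depth limits the 5p arms at 6 d, where miR-152-5p had 32 reads in all.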
